A study of Mus musculus with 24 samples.

Results

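The cytosolic ribosomal protein genes were examined in dendritic cells sorted from mouse spleen. They were taken as every gene of the count table whose symbol is Rpl or Rps followed by a digit, or Rplp0, Rplp1, Rplp2 or Rpsa, without rows named as pseudogenes (-ps) and without the S6 kinases. This gave 92 of 39017 genes in the table, of which 54 carry names of the large subunit and 38 names of the small subunit. The 239 rows named -ps and 10 S6 kinase rows were left out. Of the 92, 86 are annotated as protein coding, and Rpl37rt, Rpl6l, Rps12l1, Rps3a2, Rps3a3 and Rps4l are annotated as pseudogenes. Rps19bp1 matches the letters of the rule, but it encodes a nucleolar protein that binds Rps19 and is not a ribosomal protein. A filter on low counts kept 91 of the 92. The gene left out was Rpl10l, a paralogue of Rpl10 known from testis, with 3 reads over all libraries.

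The study compared 12 libraries from Flt3 +/+ mice (WT) with 12 from Flt3 ITD/+ mice (ITD), all of them F1 animals of C57BL/6 and FVB/N. ITD is an internal tandem duplication that leaves the Flt3 receptor active, and Flt3 is the receptor through which dendritic cells are driven to develop; the mutation was present on 1 of the 2 alleles, and the labels restrict it to no cell type. The 5 sorted subsets were PDC (the short name used for plasmacytoid dendritic cells), canonical CD8+ cells (C_CD8), non-canonical CD8+ cells (NC_CD8), and the CD11b+ cells with high or low Esam (Esamhi and Esamlo). Each genotype had 2 PDC libraries (batches A and B), 3 C_CD8 and 3 NC_CD8 libraries (batches B, C and D), and 2 Esamhi and 2 Esamlo libraries (batches C and D), from independent experiments, so each library had a partner of the other genotype from its own subset and batch. No treatment or age is given in the labels. Libraries are named below in the order of their batch letters.

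Ribosomal proteins are the protein part of the ribosome, and each is needed in about equal amount with the others. Their genes are therefore known for moving as a block: they are transcribed at high levels in most cells, and their mRNAs share a pyrimidine-rich start (the TOP motif) through which growth signals control their translation. In dendritic cells, as elsewhere, their mRNA level is often read as a mark of the capacity to make protein.

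Libraries held 11197145 to 22248404 counts. The labelled subsets were checked against markers. The summed level of 8 pDC markers was 12124 to 13594 CPM (counts scaled to a library total of 1000000) in PDC libraries and 198 to 1372 in all others. Summed cDC1 markers reached 3400 to 7013 CPM in C_CD8 and 585 to 1788 in NC_CD8 libraries, but they were as high in PDC libraries, at 4298 to 7507 CPM. The defining cDC1 gene Xcr1 was at 540 to 1200 CPM in C_CD8 and 7.04 to 165 CPM in NC_CD8 libraries. Esam itself was at 56.4 to 69.2 CPM in Esamhi and 4.03 to 13.7 CPM in Esamlo libraries. Some markers of other cells also moved with the subsets. Summed B cell markers were at 2244 to 3308 CPM in PDC and 361 to 1169 CPM elsewhere, with 1 to 3 of the 7 found at 0 in the PDC libraries. Red pulp macrophage markers were at 42.1 to 1064 CPM in NC_CD8 and 10.6 to 20.6 CPM in PDC libraries. The part of these other cells in the results below was not tested.

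Reads of these genes are hard to place, because processed copies of them lie all over the genome. Of the 92 genes, 88 share at least 1 stretch of 50 bases of their transcripts with another annotated gene, with a median of 23.9% of all such stretches shared. The 3 stretches below, chosen after the values were seen, show why a row of the table holds only some of a family's reads. They are the coding strand of the mRNA in the mm10 build, and each is found letter for letter in several other genes.
Rpl31: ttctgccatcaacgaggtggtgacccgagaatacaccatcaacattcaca
Rps12: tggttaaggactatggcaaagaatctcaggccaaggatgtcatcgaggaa
Rps19: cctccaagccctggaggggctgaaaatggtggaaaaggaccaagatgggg
The Rpl31 stretch (bases 42 to 91 of its coding sequence) occurs in 12 other genes, that of Rps12 in 22 and that of Rps19 in 10. The 92 rows held 4152428 counts in all, while the rows of 526 annotated pseudogenes that share at least 20 such stretches with 1 of them held 5631411. In the median protein-coding member, 34.5% of the counts of its family stood in its own row, and in 57 members the pseudogene rows held more counts than the gene's own row. Each level below is therefore that of a row. In the 76 protein-coding members with such pseudogene rows it can leave out part of the family's counts. Values with the pseudogene rows added are given for some results only.

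The 92 genes took 0.745% to 1.5% of all counts, and this share differed by subset. In WT libraries it was highest in C_CD8 cells, at 1.5, 1.17 and 1.16% (mean 1.27 ± 0.194 SD, n = 3). NC_CD8 cells had 1.12, 0.995 and 0.961% (1.02 ± 0.0820, n = 3), and Esamlo cells 1.05 and 0.996% (1.02 ± 0.0387, n = 2). PDC had 0.842 and 0.878% (0.860 ± 0.0256, n = 2), and Esamhi cells 0.786 and 0.853% (0.819 ± 0.0475, n = 2). All C_CD8 libraries lay above all other WT libraries, all PDC and Esamhi libraries lay below all the rest, and the neighbours NC_CD8 and Esamlo, and PDC and Esamhi, overlapped. The ITD libraries kept C_CD8 on top, at 1.35, 1.16 and 1.06% (1.19 ± 0.145, n = 3), above Esamlo at 0.939 and 0.871% (0.905 ± 0.0479, n = 2). ITD NC_CD8 libraries were at 1.03, 0.804 and 0.768% (0.867 ± 0.143, n = 3), PDC at 0.834 and 0.745% (0.790 ± 0.0626, n = 2) and Esamhi at 0.752 and 0.807% (0.780 ± 0.0394, n = 2). In both CD8+ subsets the batch B library was the highest of its group, in both genotypes. In bulk samples, fewer cells of a type and less RNA per cell cannot be told apart.

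**Figure D1:**
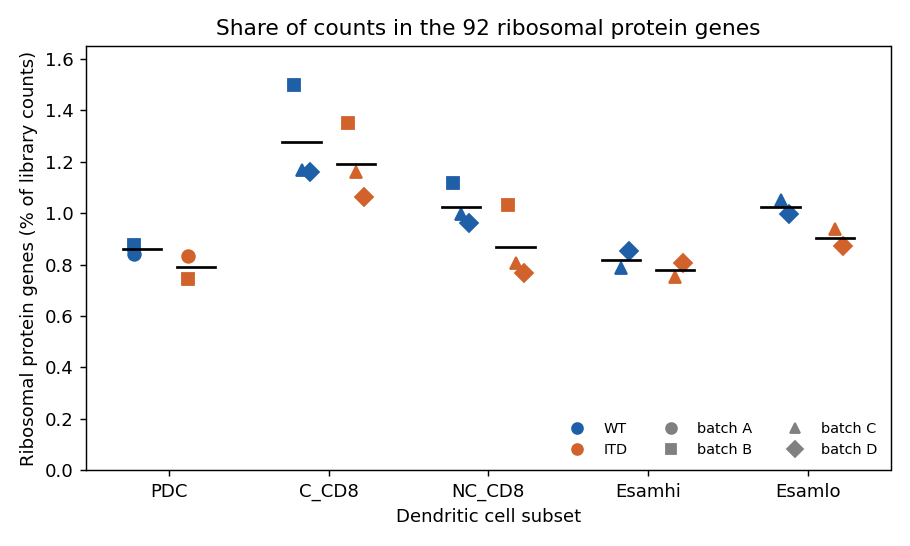
Share of all counts of a library (%, y axis) that fell in the 92 ribosomal protein genes, by dendritic cell subset (x axis), with 1 point per library, coloured by genotype and shaped by batch. The 6 C_CD8 libraries lie between 1.06 and 1.5%, and the PDC and Esamhi libraries between 0.745 and 0.878%.

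Gene by gene, the same order held for most members. The mean WT level was highest in C_CD8 cells for 75 of the 91 members tested, and lowest in Esamhi cells for 54 and in PDC for 31. In ITD libraries C_CD8 was highest for 81 members. These counts of highest and lowest groups were not made over all genes. The 5 WT groups differed for 60 of 91 members (65.9%; edgeR quasi-likelihood F test, Benjamini-Hochberg adjusted p under 0.05), beside 46.7% of all 18093 genes tested. In ITD libraries it was 61 of 91 (67.0%, beside 44.7%). The WT count was 29 without the batch B library of C_CD8 WT, and the ITD count was 35 without its ITD partner. Counts with a single library left out, here and below, are given without the share of all genes in that refit. Whether such a change is particular to these members cannot be told from them. Members also followed each other across libraries: the correlation of a member's log2 level with the median of the other members over the 24 libraries, which share subset and depth, had a median r of 0.928, and 72 of 91 were over 0.8. The members that followed least were Rpl3l (-0.26), Rpl39l (-0.20), Rps4l (-0.03), Rpl31 (0.04) and Rpl22l1 (0.26), named after their values were seen.

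Levels between genes were compared per length, as CPM per 1000 bases of exon. Rps27rt (441), a near copy of Rps27, and Rpl4 (352), a large subunit protein, were among the 3 highest rows. The lowest were the tissue-restricted paralogues Rpl10l (0.00587), Rpl39l (0.208, 69 reads in all) and Rpl3l (0.49, 377 reads). These levels are set in part by how reads were shared out within each family, so the order of single rows was not tested.

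The first contrast set PDC against the mean of the other 4 subsets in WT mice. PDC held lower levels of most ribosomal protein mRNAs, the median over the members being -0.31 (log2), and much higher levels of 3 rows: Rpl31, Rps4l and Rpl3l. At an adjusted p under 0.05, 26 members (28.6%) were called lower, beside 17.8% of all genes tested, and 4 (4.4%) were called higher, beside 20.4% of all genes. The PDC libraries share only batch B with the CD8+ subsets and no batch with Esamhi or Esamlo cells. With the batch as a block, 81 members (89.0%) were called lower, beside 25.5% of all genes, and 3 higher, beside 24.7%. Batch A held PDC libraries only, so PDC levels with the block, here and below, rest on the PDC libraries of batch B. They also rest on the offset of batch B in the CD8+ subsets, whose batch B libraries held the highest shares of their groups. Within batch B, 88 of 91 members were lower in PDC than in C_CD8 cells in both genotypes, with a median of -0.86 in WT and -1.04 in ITD. That count compares single libraries and was not made over all genes. Against NC_CD8 cells of that batch the medians were -0.42 and -0.71. The count of 26 was 10 without the batch A library of PDC WT and 7 without the batch B library.

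Rpl31, a large subunit protein at the exit of the peptide tunnel, ran against the other members. Its gene lies at chr1:39367842-39371911 (mm10, plus strand), and the row counts reads over the gene. PDC libraries held 69.5 and 68.5 CPM in WT (69.0 ± 0.760 SD, n = 2) and 68.3 and 56.4 CPM in ITD (62.4 ± 8.39, n = 2). C_CD8 libraries held 30.7, 24.2 and 21.5 CPM in WT and 27.1, 22.9 and 18.3 in ITD. NC_CD8 libraries held 18.1, 19.4 and 16.3 CPM in WT and 15.9, 13.3 and 11.5 in ITD. Every PDC library was thus above every other library, by a wide gap. In the CD11b+ cells it was at 12.2 and 13.6 CPM in Esamhi WT and 10.8 and 12.3 in Esamhi ITD. Esamlo WT libraries held 18.0 and 16.0 CPM and Esamlo ITD libraries 12.7 and 13.9. The log2 difference of PDC from the other subsets was 1.90 ± 0.157 (SE) in WT (adjusted p 2.37e-08) and 2.00 ± 0.157 in ITD libraries (adjusted p 1.26e-08), and 1.45 ± 0.147 in WT with the batch block. Within batch B, PDC exceeded C_CD8 by 0.98 (log2) and NC_CD8 by 1.8 in WT.

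The Rpl31 row held only 13% of its family's counts. The 10 rows named Rpl31-ps with at least 1000 counts were 3.20 to 4.27 times higher in PDC WT than in the other WT libraries, beside 3.76 times for Rpl31 itself. These rows can hold reads of the same mRNA and are not independent of it. With the pseudogene rows added to Rpl31 the log2 difference was 1.75. The Rpl31 row also shares stretches of sequence with Tbc1d8, a gene for a GTPase-activating protein on the opposite strand whose end overlaps that of Rpl31. The Tbc1d8 row was at 764 CPM in PDC WT and 327 CPM in the other WT libraries (2.34 times). The strandedness of the counting is not given in the sources used here, so reads of overlapping genes cannot be told apart.

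Rps4l is an expressed processed copy of Rps4x, which encodes a small subunit protein on the X chromosome. The row was at 20.3 and 32.2 CPM in PDC WT and 21.0 and 28.7 CPM in PDC ITD, against 0.968 to 8.32 CPM in the other 20 libraries. Its log2 difference in WT was 2.72 ± 0.413 (adjusted p 4.05e-05). Rps4x itself was called lower in PDC, by -0.42 ± 0.114 (adjusted p 0.00694). Rpl3l, known as the paralogue of Rpl3 in heart and skeletal muscle, was at 4.99 and 3.66 CPM in PDC WT (180 reads) and 3.61 and 1.73 CPM in PDC ITD (102 reads). No other library passed 0.927 CPM, and 1 Esamhi library had no read. The log2 difference was 3.78 ± 0.646 (adjusted p 0.000141) in WT and 3.52 in ITD libraries, while Rpl3 showed -0.34 in WT (adjusted p 0.0542). Rpl3l shared no 50-base stretch with another gene.

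Rpl36al, the paralogue of Rpl36a, was the remaining member called higher in PDC, and that call was lost with the batch block. It was at 151 and 117 CPM in PDC WT, beside 154, 114 and 121 CPM in C_CD8 WT and 72.6, 75.8 and 69.8 CPM in NC_CD8 WT. PDC and C_CD8 libraries overlapped, and both were above NC_CD8, Esamhi and Esamlo WT libraries. The log2 difference was 0.65 ± 0.182 (adjusted p 0.00851), and with the batch block 0.03 (adjusted p 0.865). In ITD libraries it was 0.89 (adjusted p 0.000716), and 0.22 with the block (adjusted p 0.166).

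Among members lower in PDC, Rps19 had the largest difference. Rps19 is a small subunit protein and the gene most often mutated in Diamond-Blackfan anaemia. It was at 66.5 and 76.8 CPM in PDC WT and 71.0 and 60.1 CPM in PDC ITD. In C_CD8 cells it was at 182, 137 and 133 CPM in WT, and in Esamhi WT, the lowest of the other WT groups, at 104 and 121 CPM. The PDC libraries did not overlap any other library. The log2 difference was -1.03 ± 0.203 in WT (adjusted p 0.000577), -1.46 with the batch block and -1.08 in ITD libraries.

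The other members with the largest called decreases in PDC WT were Rps27a (-0.77), which is made as a fusion with ubiquitin, Rpl21 (-0.72), Rps12 (-0.72), its processed copy Rps12l1 (-0.68) and Rpl13 (-0.65, adjusted p 5.23e-05). Rps27a stood at 45.1 and 44.0 CPM in PDC WT and at 93.2, 68.5 and 75.2 CPM in C_CD8 WT. In ITD libraries the largest were Rps19, Rps12 (-0.92), Rpl21 (-0.84), Rps27a (-0.79), Rpl14 (-0.74) and Rpl13 (-0.71). Of the members called lower in PDC in WT, 22 were also called lower in ITD libraries, 84.6% of the WT list and 88.0% of the ITD list. The 4 called higher in WT were those called higher in ITD. Such overlaps, here and in the contrasts below, were not computed over all genes. The ITD count of members lower in PDC was 25 (27.5%, beside 17.2% of all genes), and 5 without the batch B library of PDC ITD. The ITD count of members higher in PDC was 4 (4.4%, beside 19.2% of all genes).

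**Figure D2:**
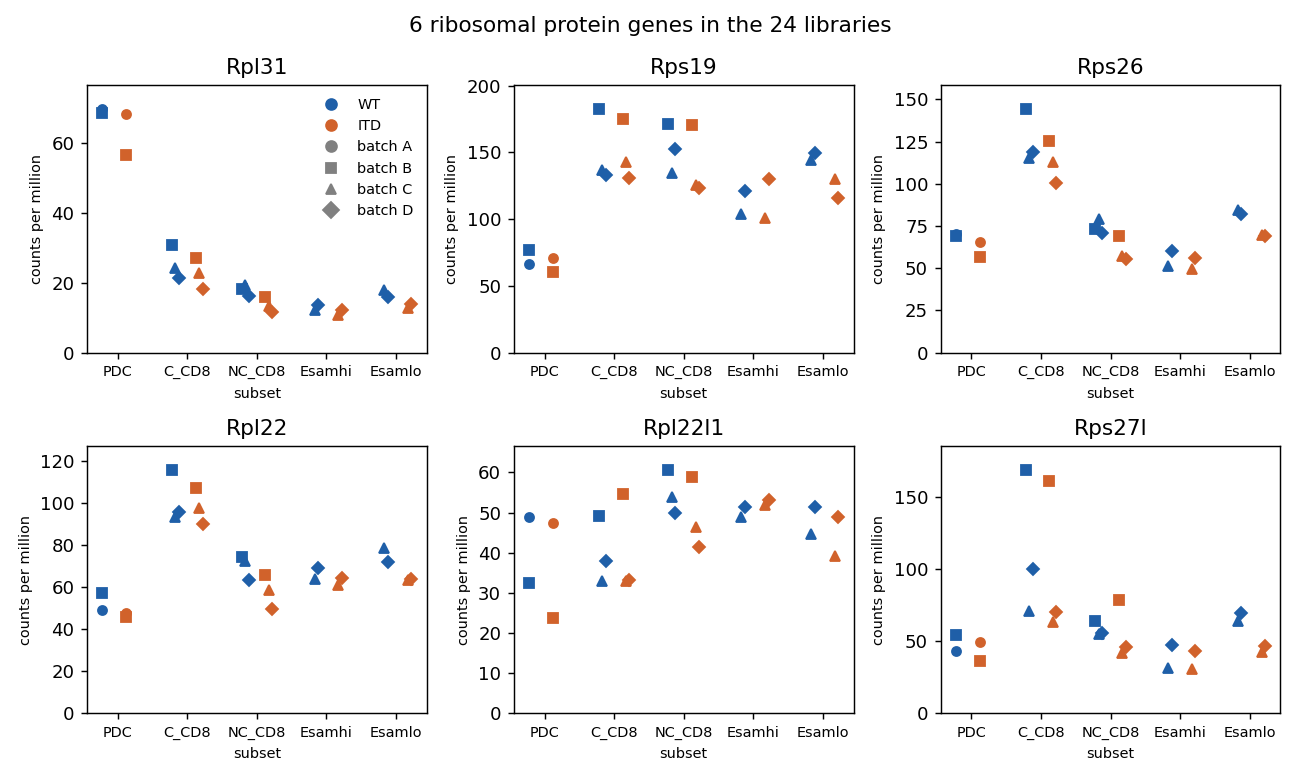
Level of Rpl31, Rps19, Rps26, Rpl22, Rpl22l1 and Rps27l (CPM, y axis of each panel, starting at 0) by subset (x axis), with 1 point per library, coloured by genotype and shaped by batch. Rpl31 is at 56.4 to 69.5 in PDC and at most 30.7 elsewhere, whereas Rps19 is at 60.1 to 76.8 in PDC and at least 101 elsewhere.

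Canonical and non-canonical CD8+ cells share the CD8 marker, and the second contrast compared them. NC_CD8 cells had lower ribosomal protein mRNA levels than C_CD8 cells, with a median log2 difference of -0.42 in WT. The test called 36 members (39.6%) lower, beside 12.6% of all genes tested. None was called higher, beside 12.5% of all genes; 0 had an unadjusted p under 0.05 in that direction, and DESeq2 also called 0. With the batch block 65 members were called lower, beside 21.5% of all genes, and 1 (Rpl22l1) higher, beside 20.5%. The difference was present within each batch, with WT medians of -0.50, -0.37 and -0.37 in batches B, C and D, and ITD medians of -0.38, -0.59 and -0.52. In ITD libraries 45 members (49.5%) were called lower, beside 14% of all genes, of which 33 were among the WT calls, 91.7% of the WT list and 73.3% of the ITD list.

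The WT count for NC_CD8 cells varied with single libraries. It was 11 without the batch B library of C_CD8 WT, 17 without the batch C library of NC_CD8 WT and 14 without its batch D library, and 31 without all CD8+ libraries of batch B (beside 9.78% of all genes). The ITD count was 19 without the batch B library of C_CD8 ITD, 20 without either the batch C or the batch D library of NC_CD8 ITD, and 73 without its batch B library. Red pulp macrophage markers were at 42.1, 1064 and 288 CPM in the NC_CD8 WT libraries of batches B, C and D, and red cell markers at 3.99, 428 and 224 CPM, and their part in the difference was not tested.

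Rps26, a small subunit protein beside the exit of the mRNA channel, showed the difference in every library. It was at 144, 115 and 119 CPM in C_CD8 WT (126 ± 15.8 SD, n = 3) and at 73.5, 79.0 and 70.8 CPM in NC_CD8 WT (74.4 ± 4.16, n = 3). ITD libraries held 125, 113 and 101 CPM in C_CD8 and 69.3, 57.0 and 55.2 CPM in NC_CD8 cells. The groups did not overlap. The log2 difference was -0.88 ± 0.151 in WT (adjusted p 0.000288) and -0.93 in ITD libraries. Rpl14, a large subunit protein, behaved alike, with 326, 258 and 261 CPM in C_CD8 WT and 191, 166 and 155 CPM in NC_CD8 WT (log2 difference -0.84 ± 0.150, adjusted p 0.000438).

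Other leading members in WT were Rps27l (-1.08, adjusted p 0.0420), Rpl36al (-0.96, adjusted p 0.00187) and Rplp1 (-0.78, adjusted p 0.00186). Rps27l, a paralogue of Rps27 known as a target of p53, spread widely within C_CD8 cells, at 168, 70.6 and 100 CPM in WT and 161, 63.5 and 70.3 CPM in ITD, with the batch B libraries far above the others. In ITD libraries the leading members were Rpl36al (-1.15), Rplp1 (-1.0), Rpl14 (-0.95), Rps26, Rpl32 (-0.83) and Rps20 (-0.81), while Rps27l showed -0.85 and was not called (adjusted p 0.0998). Both subunits took part in WT: 21 of 53 large subunit members and 15 of 38 small subunit members were called lower, with medians of -0.43 and -0.42.

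The CD11b+ cells were set against C_CD8 cells as the mean of Esamhi and Esamlo. The median difference in WT was -0.48, and 48 members (52.7%) were called lower, beside 13.9% of all genes. None was called higher, beside 12.9% of all genes, by edgeR or DESeq2, and 0 had an unadjusted p under 0.05 in that direction. With the batch block 58 were called lower, beside 19.2% of all genes, and 1 higher, beside 18.7%. In ITD libraries 51 members (56.0%) were called lower, beside 11% of all genes, of which 45 were WT calls, 93.8% of the WT list and 88.2% of the ITD list. Leading WT members included Rps27l (-1.18, adjusted p 0.0164), Rpl36al (-0.94), Rps26 (-0.92, adjusted p 8.80e-05), Rpsa (-0.87, adjusted p 0.00641), which is also known as the laminin receptor, and Rpl14 (-0.83). In ITD libraries they included Rps27l (-1.31), Rpl36al (-1.02), Rps26 (-0.93), Rpl31 (-0.91) and Rps20 (-0.83).

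The 2 CD11b+ fractions stood apart in this contrast. Within batches C and D the member median of Esamhi less C_CD8 was -0.60 and -0.41 in WT, and that of Esamlo less C_CD8 was -0.20 and -0.13. The WT count of 48 was 14 without the batch B library of C_CD8 WT and 20 without the batch C library of Esamhi WT. It was 34 without all CD8+ libraries of batch B (beside 11.3% of all genes), with a median of -0.27. The ITD count was 19 without the batch B library of C_CD8 ITD, 28 without the batch C library of Esamhi ITD and 31 without the batch D library of Esamlo ITD.

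Esamhi against Esamlo was the contrast between the CD11b+ fractions. The member median was -0.37 in WT, with 87 of 91 members at or below 0, and no member was called, beside 0.658% of all genes. The count at or below 0 was not made over all genes. Of the 91, 28 had an unadjusted p under 0.05 by edgeR, all lower, and DESeq2 called 2. Counts at an unadjusted p or by DESeq2, here and below, are given without the share of all genes. Within batches the WT medians were -0.44 (batch C) and -0.31 (batch D). With the batch block 29 members (31.9%) were called lower, beside 3.74% of all genes. They included Rps4x (-0.54, adjusted p 0.00138 with the block and 0.101 without), Rpl36al (-0.71, adjusted p 0.00292 with the block and 0.273 without), Rps26 (-0.58, 0.00792 and 0.209) and Rpsa (-0.38, 0.0400 and 0.752). Rps26 was at 51.1 and 60.5 CPM in Esamhi WT and 84.5 and 82.2 CPM in Esamlo WT, with no overlap. In ITD libraries the median was smaller within batch D (-0.13) than within batch C (-0.32). No member was called there, beside 0.442% of all genes, with 8 at an unadjusted p under 0.05 by edgeR, 1 called by DESeq2 and 9 lower with the block, beside 2.44% of all genes.

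**Figure D3:**
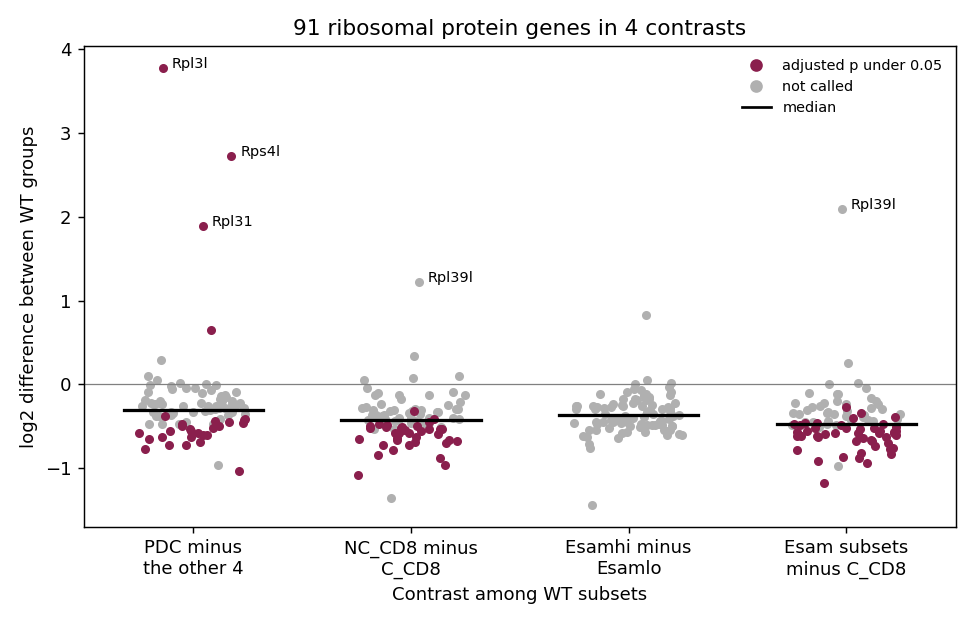
Log2 differences of the 91 tested ribosomal protein genes in 4 contrasts among WT subsets (x axis), with 1 point per gene, dark where the adjusted p is under 0.05, and a line at the median. Medians are -0.31, -0.42, -0.37 and -0.48, with Rpl3l, Rps4l and Rpl31 standing far above 0 in the contrast of PDC with the other subsets.

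By role, the stalk proteins recruit elongation factors to the large subunit. Rplp0, the base of the stalk, was called lower in PDC (-0.56, adjusted p 0.00577) and CD11b+ cells (-0.53, adjusted p 0.00848). It showed -0.40 in NC_CD8 less C_CD8 cells (adjusted p 0.0575), a call that the batch block made (adjusted p 0.00116). Rplp1 was lower in NC_CD8 and CD11b+ cells (-0.56, adjusted p 0.0119) and showed -0.23 in PDC (adjusted p 0.268). Rplp2 was called only in PDC (-0.44, adjusted p 0.0313), and Rpl12, beside the stalk, was called in none of these contrasts without the block. Whether the stalk members differ from each other was not tested.

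Rpl5 and Rpl11 bind the 5S RNA together, and outside the ribosome they are known to hold back Mdm2, the inhibitor of p53. Rpl5 was called lower in PDC (-0.52, adjusted p 0.0116) and CD11b+ cells (-0.39, adjusted p 0.0498), and showed -0.42 in NC_CD8 cells (adjusted p 0.0519, and 0.00143 with the block). Rpl11 was called lower in NC_CD8 (-0.45, adjusted p 0.0390) and CD11b+ cells (-0.40, adjusted p 0.0447) and showed -0.15 in PDC (adjusted p 0.440, and 0.00260 with the block).

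Rpl22, an RNA-binding large subunit protein needed for T cell development, and its paralogue Rpl22l1 differed in their pattern. Rpl22 was at 116, 93.3 and 95.8 CPM in C_CD8 WT, at 49.1 and 57.4 CPM in PDC WT, and it was called lower in PDC (-0.60), NC_CD8 (-0.65) and CD11b+ cells (-0.56). Rpl22l1 was at 49.3, 33.0 and 37.9 CPM in C_CD8 WT and at 60.6, 54.0 and 49.8 CPM in NC_CD8 WT, where every library was above every C_CD8 WT library. Its values spread within PDC, at 49.0 and 32.5 CPM in WT and 47.3 and 23.8 CPM in ITD, with batch B low in both. Without the block Rpl22l1 showed -0.29, 0.34 and 0.26 in the 3 contrasts and was not called (adjusted p 0.432, 0.410 and 0.503), and the PDC value was 0.034 without the batch B library of PDC WT. With the block it was lower in PDC (-1.22, adjusted p 5.90e-06) and higher in NC_CD8 (0.35, adjusted p 0.0200) and CD11b+ cells (0.46, adjusted p 0.00334), the only member called higher in the last 2. The difference between the paralogues was not tested.

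Among the other paralogue pairs, Rps27 and its near copy Rps27rt were not called among WT subsets without the block (adjusted p 0.818 and 0.878). With the block both were called by the same F test (adjusted p 0.0366 and 0.0166). The other calls in this paragraph are those without the block. Rps27 was at 77.1 ± 13.3 CPM (SD, n = 3) in C_CD8 WT and 77.8 ± 3.82 CPM (n = 2) in PDC WT. Rpl36a showed -0.48, -0.33 and -0.34 in PDC, NC_CD8 and CD11b+ cells, none called. Rpl7l1 was called in none of the 3 contrasts, while Rpl7 was called lower in NC_CD8 cells (-0.41, adjusted p 0.0295). Rpl10 was called lower in NC_CD8 cells (-0.64, adjusted p 0.00241) and Rpl3 in NC_CD8 (-0.58) and CD11b+ cells (-0.64). Rpl39 was not called in any. Rpl39l, known from testis, had 0 to 25 reads a group over the 10 groups, too few for its differences to be read.

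Several members with known roles beyond the ribosome were called lower too. Rps6, the target of the S6 kinases, was called lower in NC_CD8 (-0.53, adjusted p 0.0478) and CD11b+ cells (-0.60, adjusted p 0.0167). Rps3, which also takes part in DNA repair, was called lower in CD11b+ cells (-0.62, adjusted p 0.0167). Rpl10a was called lower in PDC (-0.38), NC_CD8 (-0.56) and CD11b+ cells (-0.58, adjusted p 0.000812). It stood at 61.2, 73.5, 59.3 and 79.0 CPM in PDC, NC_CD8, Esamhi and Esamlo WT cells and at 99.6 CPM in C_CD8 WT cells. Rpl13a, also known as part of an interferon-driven translation block, was called lower in NC_CD8 (-0.50, adjusted p 0.0404) and CD11b+ cells (-0.76, adjusted p 0.00171). Rps25, needed by viral internal ribosome entry sites, was called lower in PDC (-0.41) and CD11b+ cells (-0.46), and Rpl38, known for its effect on Hox mRNA translation, in CD11b+ cells (-0.58, adjusted p 0.0381). Rps10, Rps14, Rps24, Rpl24, Rpl26 and Rpl35a were called in none of the 3 contrasts without the block. With the pseudogene rows added, Rpl24 and Rpl35a passed the F test over the WT groups (adjusted p 0.0314 and 0.0366). Their own rows did not (adjusted p 0.146 and 0.769). Rps19bp1 showed -0.67 in CD11b+ cells (adjusted p 0.0358), 0.30 in PDC (adjusted p 0.322) and -0.12 in NC_CD8 cells (adjusted p 0.756).

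The other genes of the pathway were taken from lists. Their counts stand beside the shares of all genes called in WT, which were 17.8% lower and 20.4% higher in PDC, 12.6 and 12.5% in NC_CD8, and 13.9 and 12.9% in CD11b+ cells. Of 18 genes for elongation factors and other TOP mRNAs, 4 were called lower in PDC, 10 in NC_CD8 and 13 in CD11b+ cells of WT mice, and none higher. Their medians were -0.27, -0.48 and -0.54, beside -0.31, -0.42 and -0.48 for the ribosomal protein genes. With the block the number lower in PDC was 14. Eef1b2, part of the exchange factor of elongation factor 1, had -0.96, -1.23 and -1.53, and Eef2, the translocation factor, -0.44 and -0.61 in NC_CD8 and CD11b+ cells. Pabpc1, the poly(A)-binding protein, had -1.06 in PDC and -0.52 in NC_CD8 cells. Eif4b, a helper of the initiation helicase, had -0.40 in PDC, and Eif3h, a subunit of initiation factor 3, -0.91 in CD11b+ cells.

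Of 30 ribosome biogenesis genes, 6 were called lower and 2 higher in PDC (beside 17.8 and 20.4% of all genes), 6 lower in NC_CD8 (beside 12.6%) and 10 lower in CD11b+ cells (beside 13.9%). Their medians were 0.00322, -0.20 and -0.41. Polr1a, the largest subunit of RNA polymerase I, had -1.38, -1.52 and -1.08. Pes1, which matures large subunits, had -0.66 in NC_CD8 and -0.87 in CD11b+ cells, and Npm1, the nucleolar chaperone, -0.55 in NC_CD8 cells. Wdr12, the partner of Pes1, was lower in PDC (-1.22), and Nop2, an rRNA methyltransferase, in CD11b+ cells (-0.95). Ubtf, the polymerase I activator, was higher in PDC (0.54).

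Of 15 genes that control ribosome synthesis, 3 were called lower and 2 higher in PDC (beside 17.8 and 20.4% of all genes), among them Myc (-3.71), the transcription factor that drives ribosome synthesis, Eif4ebp1 (-1.34), the repressor of cap binding, and Rptor (0.56), a subunit of mTORC1. In NC_CD8 cells Rps6kb2, an S6 kinase, was called higher (0.36) and Akt1 lower (-0.43), as also in CD11b+ cells (0.51 and -0.70), where Rptor was higher (0.48). Of 6 genes that host snoRNAs, Snhg12 (-1.62) and Gas5 (-0.63) were called lower in PDC, while Gas5 was higher in NC_CD8 (0.56) and CD11b+ cells (0.52) and Zfas1 lower (-0.53 and -0.67). Of 3 ribosomal proteins with other symbols, Rack1, a small subunit scaffold that is also in the snoRNA host list, was called lower in CD11b+ cells (-0.54), and Fau was called in none.

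The last comparison was that of the genotypes. Ribosomal protein mRNA levels were slightly lower in most ITD libraries than in their WT partners. No member passed the test of group means, which leaves out the pairing. With the pair as a block, described below, 17 of 91 members (18.7%) were called lower on average, beside 2.34% of all genes. In ITD less WT, the member median was -0.13 in PDC, -0.10 in C_CD8, -0.15 in NC_CD8, -0.07 in Esamhi and -0.22 in Esamlo cells (log2). Single libraries turned 3 of these medians: that of PDC was 0.022 without the batch B library of PDC ITD, that of C_CD8 0.051 without the batch B library of C_CD8 WT, and that of Esamhi 0.044 without the batch D library of Esamhi WT. Without the block no member was called in any subset, beside 0.0608, 0.0166, 0.310, 0 and 0.00553% of all genes. By edgeR the members with an unadjusted p under 0.05 numbered 0, 0, 1, 0 and 3, and DESeq2 called 0 members in each. Averaged over the 5 subsets, all 91 members were lower in ITD, with a median of -0.12, beside a median of -0.0015 over all genes tested. No member was called on average either without the block, beside 0.359% of all genes called. Of the 91, 12 had an unadjusted p under 0.05 by edgeR, with no share of all genes at that threshold given, and DESeq2 called 0. That all members lie on 1 side is no count of independent events, since the members move together across libraries. Some marker sums also differed by genotype without overlap. In NC_CD8 cells the cDC1 sum was 585 to 689 CPM in ITD and 931 to 1788 in WT, the NK cell sum 89.1 to 102 and 137 to 214, and the plasma cell sum 166 to 201 and 220 to 334. The plasma cell sum was also lower in ITD in Esamlo (285 to 318 and 371 to 398 CPM) and Esamhi cells (191 to 215 and 231 to 277), and the neutrophil sum in Esamlo cells (4.73 to 13.7 and 20.2 to 21.8). The pDC sum was 12124 to 12651 CPM in ITD and 13010 to 13594 in WT PDC, and it was higher in ITD in C_CD8 (282 to 319 and 199 to 229), Esamhi (250 to 260 and 198 to 243) and Esamlo cells (310 to 332 and 272 to 302). The cDC2 sum was higher in ITD in PDC (1687 to 1882 and 1323 to 1530) and Esamlo cells (1773 to 1962 and 1574 to 1643). Their part in the result was not tested.

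The pairs of libraries that share subset and batch showed the same small shift unevenly. The member median of ITD less WT was below 0 in 10 of 12 pairs. It was -0.29 in PDC of batch B, -0.29 in NC_CD8 of batch D, -0.29 in Esamlo of batch D and -0.24 in NC_CD8 of batch C. It was 0.01 in PDC of batch A and in NC_CD8 of batch B, and the other 6 pairs ran from -0.14 to -0.01. The number of members higher in ITD was 54, 50 and 45 of 91 in PDC of batch A, NC_CD8 of batch B and C_CD8 of batch C, and 0 to 33 in the other 9 pairs, beside 45.4 to 53.0% of all genes in any pair. In those 3 pairs the members were split about evenly between the genotypes. Of the 91 members, 63 were lower in at least 9 pairs and 8 in all 12: Rpl11, Rpl12, Rpl13a, Rpl14, Rpl31, Rpl35, Rpl6 and Rpl6l. These counts were not made over all genes, and members that move together across libraries are not independent.

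**Figure D4:**
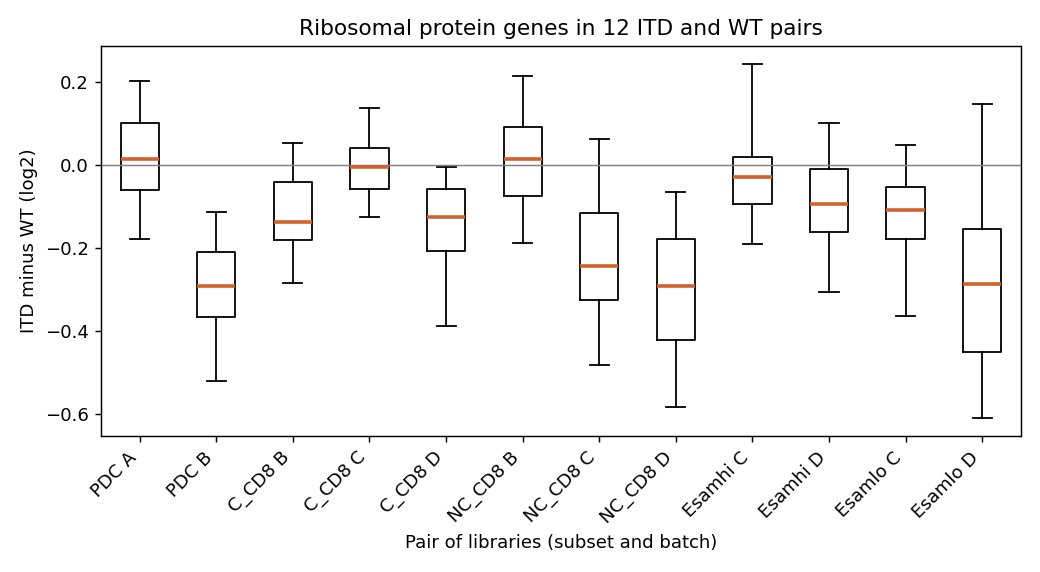
Log2 difference of ITD less WT (y axis) for the ribosomal protein genes in the 12 pairs of libraries that share subset and batch (x axis), each as a box over the 91 tested genes with the quartiles, a line at the median and whiskers at percentiles 5 and 95. The medians run from -0.29 to 0.01 and lie below 0 in 10 of 12 pairs.

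With the pair as a block, the average ITD effect was called for 17 members (18.7%), all lower, beside 2.34% of all genes called lower and 4.49% called higher. With the pseudogene rows added to their members as well it was 25 of 86 (29.1%), beside 2.39% of all genes lower. These fits count pairs of different subsets from the same batch as independent, which was not tested. The following 7 genes were chosen after their values were seen. Rpl36al had -0.29 ± 0.0517 (adjusted p 0.00740 with the block and 0.359 without), and Rpl35, a large subunit protein, -0.28 ± 0.0564 (0.0142 and 0.299). Rpl12 had -0.24 (0.0235 and 0.549), Rpl11 -0.18 (0.0238 and 0.508) and Rpl31 -0.22 (0.0403 and 0.531). Rps26, of the small subunit, had -0.17 (0.0439 and 0.543), and Rpl5, of the large subunit, -0.17 (0.0482 and 0.556). The block called 2 members lower in NC_CD8 cells (2.2%, beside 2.4% of all genes lower), Rpl36al (-0.44, adjusted p 0.0301) and Rpl11 (-0.31, adjusted p 0.0470).

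Rpl36al shows the size of these effects by library. NC_CD8 libraries held 72.6, 75.8 and 69.8 CPM in WT and 57.4, 49.3 and 44.6 CPM in ITD, and Esamlo libraries 84.7 and 93.1 CPM in WT and 65.6 and 63.9 CPM in ITD. In Esamhi cells WT held 50.9 and 57.7 CPM and ITD 47.4 and 47.1. WT and ITD did not overlap in these 3 subsets. In C_CD8 cells WT held 154, 114 and 121 CPM and ITD 125, 105 and 97.5. In PDC it was at 151 and 117 CPM in WT and 156 and 92.9 CPM in ITD, where the genotypes overlapped, as they did in C_CD8 cells. Rpl35 in Esamlo cells was at 38.6 and 38.5 CPM in WT and 28.7 and 23.8 CPM in ITD, and in C_CD8 cells at 58.2, 41.8 and 40.0 CPM in WT and 43.6, 40.2 and 35.2 CPM in ITD.

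The ITD effect was also tested for a difference among the 5 subsets. No member was called, beside 0% of all genes. The smallest unadjusted p among the members was 0.335 by edgeR, so 0 members had one under 0.05, and the smallest adjusted p was 1, or 0.469 with the pair block. Among the pathway lists no gene was called for the average ITD effect without the block, with 2 of 18 elongation and TOP genes and 2 of 30 biogenesis genes at an unadjusted p under 0.05. With the block 5 biogenesis genes were lower (beside 2.34% of all genes), among them Gar1 (-0.33, adjusted p 0.0196) and Nhp2 (-0.24, adjusted p 0.00928), proteins of the pseudouridylation complex, and Tsr1 (-0.24, adjusted p 0.0379), a small subunit maturation factor. Mxd1, an antagonist of Myc, was higher with the block (0.62, adjusted p 8.92e-05, and 0.460 without).

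Promoters were read for the members that stood out, to show what letters lie at their starts. Of the 92 members, 67 have an entry in the RefSeq table (GRCm38.p6, 250 bases before to 50 after the start). The lines give 60 bases before to 20 after the start, 5′ to 3′ on the gene's strand, for Rpl31 (high in PDC), Rps27l, Rpl14 and Rps26 (high in C_CD8). Capitals mark CCGGAAGT, the ETS-type motif, where it was found.
Rpl31: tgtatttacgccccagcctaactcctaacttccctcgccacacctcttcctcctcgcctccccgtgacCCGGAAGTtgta
Rps27l: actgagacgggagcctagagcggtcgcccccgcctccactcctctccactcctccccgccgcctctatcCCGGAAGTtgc
Rpl14: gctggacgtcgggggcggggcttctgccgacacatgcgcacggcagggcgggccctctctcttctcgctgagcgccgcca
Rps26: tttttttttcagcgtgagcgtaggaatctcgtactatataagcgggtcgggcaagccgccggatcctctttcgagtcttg
These lie at chr1:39367791-39367870 (plus strand), chr9:66946026-66946105 (plus), chr9:120571457-120571536 (plus) and chr10:128626487-128626566 (minus). Searched on both strands of the 300-base windows, CCGGAAGT was found in 12 of 67 members (17.9%) and in 4.31% of all 27025 genes of the table. CTTTCC, a short pyrimidine run, was found in 36 members (53.7%) and in 29.3% of all genes. The TOP motif lies at the start of the mRNA, so matches anywhere in the window and on either strand do not measure it. CACGTG, the E-box that Myc binds, was found in 6 members (8.96%) and in 8.09% of all genes. TATAAA was found in 7 members (10.45%) and in 15.67% of all genes. Rps27l has a second start in that table (chr9:66946353-66946432 for the same stretch, plus strand), whose window holds no CCGGAAGT and is not printed. A match of letters is a description and shows no binding.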

How the data were processed

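RNA was sequenced from 24 libraries of 5 sorted dendritic cell subsets, 12 of each genotype. Flow-sorted cells gave RNA by PicoPure columns, after Trizol in some samples, and it was amplified with a SMART-seq v4 low input kit, per the labels' protocols. Per the submitters' processing notes the tools were bcl2fastq 1.8.4, Bowtie2 (given there with the version 0.4, which is not a number of its releases) and DESeq2 1.8.2, on mm10. How reads were counted, with which annotation and strand setting, is not given in the sources used here. Raw counts per Ensembl gene were deposited by the authors, and these, of 11197145 to 22248404 per library, were the values analysed. Intervals of counting are narrow at this depth, except for rows with few reads.

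Symbols, positions and gene types came from GENCODE vM21 (GRCm38, the same build as mm10), and 37607 of 39017 rows had a symbol. Promoters came from RefSeq (GRCm38.p6). Counts were analysed in R 4.3.3 with edgeR 4.0.16 and limma 3.58.1: TMM scaling, filterByExpr with a minimum count of 10 (18093 genes), 1 quasi-likelihood fit with 10 group means (14 residual degrees of freedom, biological coefficient of variation 0.317), and Benjamini-Hochberg adjustment over all genes tested, with calls at an adjusted p under 0.05. A prior count of 2 was used for log2 CPM in correlations, batches and pairs. Plots were made in Python 3.11.15 with matplotlib 3.10.9. The fit was tested on simulated data. SD and n are over libraries, and SE is that of the log2 difference. P-values measure the spread between these libraries. Per the series design the replicates of a group came from independent experiments. Libraries of different subsets shared batches B, C and D, however. The fits without a block and with the pair block count such libraries or pairs as independent, which was not tested.

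Each genotype result was refitted with the pair (subset and batch) as a block (7 residual degrees of freedom, coefficient 0.141), and each subset contrast with the batch as an additive block (11 and 0.174). The batch letters of the labels give the pairs. After group means were subtracted, r between the libraries of a pair ran from 0.134 to 0.646 across all genes. Over the member genes alone r ran from -0.49 to 0.63. This r was below 0 in the pairs of Esamhi (-0.49) and Esamlo cells (-0.23) and in NC_CD8 of batch D (-0.28). In all other pairs it was above 0. In PDC, Esamhi and Esamlo cells, the subtraction leaves the libraries of a group with equal and opposite values. The pairs of such a subset must therefore give the same r. In the CD8+ subsets the values of a group are also tied by its mean. The r values of the 12 pairs are thus not independent checks of the pairing. Other alternatives were DESeq2 1.42.0, its size factors, scaling without the member genes, no filter on low counts, only the compared groups, and each library left out in turn. After the data were seen 3 were added: pseudogene rows added to their member, the same with the block, and leaving out the CD8+ libraries of batch B. Pseudogene rows were matched by shared 50-base stretches of transcript.

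The members, gene lists, markers and comparisons were chosen with earlier results of these data known. Named genes were up to 6 called members with the largest change in each direction of each comparison, a list of paralogues, stalk, 5S and other members with known roles, the 3 highest and 3 lowest per length, and up to 3 called genes of each list by smallest p. Some genes that this rule picks are not reported here. Others are said to have been chosen after their values were seen.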

Additional observations from a re-analysis of the deposited data

How the results depend on the processing

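Counts below are of members called, of 91, or of 86 where the pseudogene rows were added. They are given without the share of all genes. With the block that share rose too, in WT from 17.8 to 25.5% lower in PDC and from 12.6 to 21.5% lower in NC_CD8 cells. The block on the pair (genotype) or batch (subsets) changed most of them, and the cause was not tested. With the replicate block the members lower in ITD were 2 in NC_CD8 cells and 17 on average. In WT they were 81 lower in PDC, 65 lower and 1 higher in NC_CD8, 29 lower in Esamhi against Esamlo and 1 higher in CD11b+ cells. In ITD libraries they were 81, 76 lower, 9 and 1. The block changed no other count of calls by over 1.5 times. With the pseudogene rows added as well, these were 6 and 25 for ITD, 77, 70 and 1, 37 and 1 in WT, and 78, 77, 8 and 1 in ITD libraries. For Esamhi against Esamlo, DESeq2 called 2 members in WT and 1 in ITD libraries, and 4 were called in WT without the CD8+ libraries of batch B. DESeq2's size factors, scaling without the member genes and no filter on low counts moved no count by over 1.5 times. DESeq2 was not run for the difference of the ITD effect among subsets.

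Leaving out each library in turn gave 29 to 63 members for any WT subset difference, 7 to 31 lower and 3 to 4 higher in PDC, 11 to 41 lower in NC_CD8 and 14 to 51 lower in CD11b+ cells. In ITD libraries the ranges were 35 to 77, 5 to 29 and 3 to 5, 19 to 73, and 19 to 57. All other counts stayed at 0. The member median of ITD less WT ran from -0.28 to 0.022 in PDC, from -0.21 to 0.051 in C_CD8 and from -0.18 to 0.044 in Esamhi cells. Rpl22l1 ran from -0.18 to 0.038 for ITD less WT on average, from -0.67 to 0.034 in PDC and from -0.079 to 0.21 in Esamhi less Esamlo. Of the other values of named members, 2267 kept their direction and side of the threshold, 85 were no longer called and 43 became called. Depth limits Rpl3l, Rpl39l and Rpl10l, with 377, 69 and 3 reads over all libraries.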
